A study of Mus musculus with 4 samples.

Results

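Molecular chaperones help newly made or damaged proteins reach and keep their folded state. A set of 35 mouse genes of this kind was examined in T29 cells, a line from a mouse thymic lymphoma. They were chosen by name, with earlier results of these data known. They are 8 subunits of the cytosolic chaperonin TRiC/CCT and 10 other cytosolic chaperones and cochaperones. The rest are 4 mitochondrial chaperones and 13 genes of the endoplasmic reticulum (ER). The array annotation gave 34 of the 35 genes, among 18193 in all, at least 1 probe set with a single gene symbol. The brightest such probe set stood for the gene. Hsp90ab1 was not analysed here. All 34 probe sets had means above the array median, so none was lost to a low signal.

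The 4 samples were 2 arrays of T29 cells given DMSO, the solvent, and 2 of T29 cells given MRK003, a gamma-secretase inhibitor (GSI). The labels write the dose as 5 mM and the exposure as 36 h. The treatment text is the same for all samples, so the groups come from the sample titles, and the dose could not be checked. T29 is a single line, and nothing in the labels says that replicates were separate cultures, and the spread behind the p-values may be technical.

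Gamma-secretase releases the intracellular part of Notch receptors, which then acts on transcription in the nucleus, and Notch signalling drives growth in many T cell tumours. Of the 7 Notch targets checked, all 7 fell with GSI, with log2 differences of -3.53 for the ubiquitin ligase gene Dtx1 and -2.26 for the repressor gene Hes1. The T lineage markers had array medians of 11.08 to 11.21 on the log2 scale, with 1 of 8 below the median of all probe sets (Cd2). Of these 8 markers Cd247 and Thy1 rose, by 0.81 and 0.53, and Cd3g fell by 0.47. Median levels of the B cell, myeloid, erythroid and stromal or epithelial markers lay between 3.92 and 4.93, with 3 of 4, 3 of 5, 3 of 4 and 3 of 5 below that median. None of those 4 lists had a called gene except the stromal list, where the growth factor receptor gene Pdgfrb fell by 1.28 on the log2 scale. Its part in the results below was not tested.

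Chaperones work in separate compartments with separate control. In the cytosol, HSP70 and HSP90 proteins bind exposed stretches of their clients with the help of J-domain proteins and other cochaperones, and TRiC/CCT encloses actin, tubulin and other clients in a closed chamber. In mitochondria, HSP60 and its lid HSP10 form a similar chamber. In the ER, BiP, GRP94, the lectins calnexin and calreticulin and the protein disulphide isomerases fold secreted and membrane proteins. Heat shock factors act on the cytosolic and mitochondrial genes through heat shock elements. Misfolded proteins in the ER set off the sensors IRE1, PERK and ATF6, which is the unfolded protein response. Part of this response acts on genes through ER stress elements.

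The start regions of several members carried these elements in their letters, and they are shown because Hspd1, the gene called lower below, and many of the ER genes hold them. RefSeq promoter windows of GRCm38.p6, 250 bases before to 50 after an annotated start, were found for 29 of the 35 members. The heat shock element was searched on both strands as GAA, TTC and GAA, or TTC, GAA and TTC, with 2 bases of any kind between the triplets, and its 2 forms can overlap. It was in the windows of 3 of 29 members (Hspd1, Hspe1 and Hsph1) against 0.662% of the 27025 genes with a window. The windows of Hspe1 and of 1 of the 2 annotated starts of Hspd1 overlapped by 285 bases on opposite strands, and both held the same stretch of 18 bases with 2 overlapping matches. This stretch ended 72 bases before the start of Hspe1 and 127 bases before that start of Hspd1. It is written below on the strand of Hspe1, with the matches in capitals, and lies at chr1:55088029-55088106.
Hspe1 and Hspd1: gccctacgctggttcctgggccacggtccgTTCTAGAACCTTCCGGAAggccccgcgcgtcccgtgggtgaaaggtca

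The match in Hsph1 lay after its annotated start and is not printed. An ER stress element, searched on both strands as CCAAT and CCACG with 9 bases of any kind between them, was in the windows of 6 of 12 ER members, 0 of the other 17 members and 0.137% of all genes with a window. These were Hspa5, Hsp90b1, Pdia6, Calr, Canx and Dnajc3, with 2 matches in Hsp90b1. The second form, ATTGG and CCACG with 1 base between them, was in the window of Herpud1 and those of 0.0444% of all genes. The matches are in capitals on the strand of each gene, with 30 bases on either side. In Calr and in the second stretch of Hsp90b1 the element reads on the opposite strand.
Hspa5, chr2:34771995-34772073, plus strand: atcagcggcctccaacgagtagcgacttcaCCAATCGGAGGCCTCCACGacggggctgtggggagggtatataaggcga
Hsp90b1, chr10:86705608-86705686, minus strand: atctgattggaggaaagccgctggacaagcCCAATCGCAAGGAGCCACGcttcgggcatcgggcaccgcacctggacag
Hsp90b1, chr10:86705503-86705581, minus strand: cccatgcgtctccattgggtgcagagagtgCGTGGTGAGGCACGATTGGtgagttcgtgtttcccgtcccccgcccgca
Pdia6, chr12:17266461-17266539, plus strand: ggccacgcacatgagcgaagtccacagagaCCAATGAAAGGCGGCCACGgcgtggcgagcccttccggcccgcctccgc
Calr, chr8:84847045-84847123, minus strand: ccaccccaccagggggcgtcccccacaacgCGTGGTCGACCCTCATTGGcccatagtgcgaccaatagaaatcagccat
Canx, chr11:50325770-50325848, minus strand: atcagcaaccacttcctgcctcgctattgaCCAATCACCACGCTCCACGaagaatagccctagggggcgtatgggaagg
Dnajc3, chr14:118937797-118937875, plus strand: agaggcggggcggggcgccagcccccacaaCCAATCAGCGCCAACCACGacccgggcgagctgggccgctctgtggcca
Herpud1, chr8:94386347-94386417, plus strand: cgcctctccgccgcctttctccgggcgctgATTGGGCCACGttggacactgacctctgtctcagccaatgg

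The motifs of other factors were searched too. The unfolded protein response element TGACGTGG was in the windows of 0 of 29 members and 0.714% of all genes. The E-box CACGTG, a site of Myc and its partners, was in the windows of 4 of 29 members (Hsph1, Hspd1, Dnajb9 and Calr) against 8.09% of all genes. A match is a run of letters and was not tested as a binding site.

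The comparison asked how these genes differ between T29 cells with and without the inhibitor. With GSI, 28 of the 34 genes had a lower mean than with DMSO, against 53% of all genes, and 6 a higher one, against 47%. The median log2 difference was -0.16, against -0.012 for all genes. In 24 of 34 both GSI arrays lay below both DMSO arrays, against 27.7% of all genes, and in 4 of 34 both lay above, against 23.7%. Among the 5888 genes at least as bright as the dimmest of the 34, GSI arrays lay below in 37.4% and above in 33.5%. Among the 497 at least as bright as the median member, it was 40.2% and 31.6%. The 27.7% of all genes that recurs below is thus lower than the share among genes this bright. In RNA from whole cultures, fewer cells with a transcript and less of it per cell cannot be told apart. The differences were small. The gene for mitochondrial HSP60, Hspd1, fell past the threshold (limma, adjusted p under 0.05 over all genes), so 1 of 34 was called lower against 1.56% of all genes, a share near the background, and 0 were called higher against 2.56%. Either way 4.12% of all genes were called. Without adjustment, 11 members were lower and 2 higher at a limma p under 0.05, against 10.7% and 10.8% of all genes. With a variance prior that follows the signal, which allows bright probe sets a smaller variance, 12 members were lower and 2 higher, against 4.94% and 5.73% of all genes. With dim genes left out of the test it was 5 lower and 1 higher, against 6.24% and 8.2%. With the mean of all probe sets standing for a gene, 2 members were lower and 0 higher, against 2.08% and 2.81%. These counts describe the list and were not tested against other lists.

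**Figure D1:**
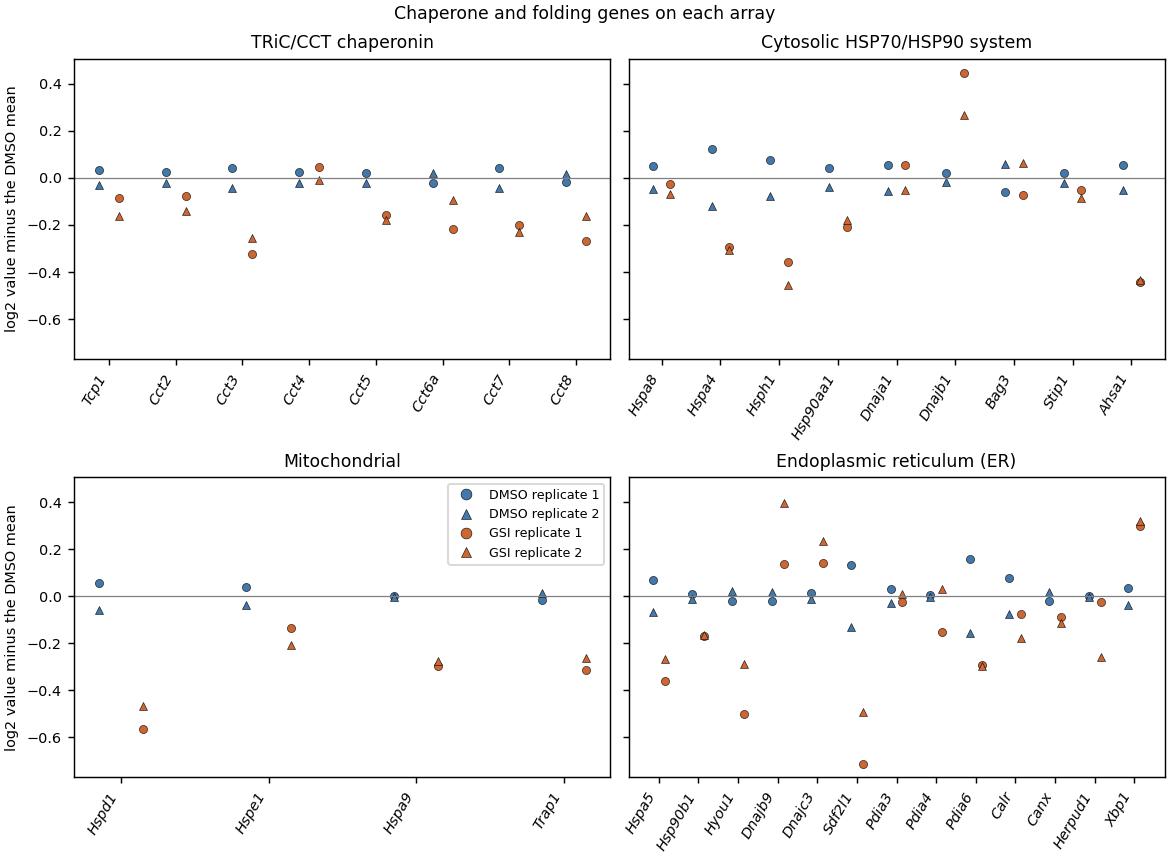
Log2 expression of each gene on each array minus the mean of its 2 DMSO arrays (vertical axis), in 4 panels by compartment; circles are replicate 1, triangles replicate 2, blue DMSO and orange GSI. In 24 of 34 genes both orange points lie below both blue ones, and in Dnajb1, Dnajb9, Dnajc3 and Xbp1 both lie above.

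The DMSO arrays also differed from each other in these genes. DMSO replicate 2 gave the higher value in 7 of 34, with a median of -0.053 for replicate 2 minus replicate 1, and in 8036 of all 18193 genes. Between the GSI arrays 18 of 34 were higher on replicate 2, with a median of 0.0059. Without DMSO replicate 1 the median log2 difference of the 34 genes was -0.14, and without DMSO replicate 2 it was -0.18.

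Of the mitochondrial chaperones all 4 had lower means with GSI, each with both GSI arrays below both DMSO arrays (27.7% of all genes). The median difference of the 4 was -0.29 on the log2 scale. Hspd1, encoding the HSP60 subunits of the folding chamber, had only 1 probe set with a single symbol. It measured 12.77 and 12.65 with DMSO and 12.15 and 12.24 with GSI. It fell by 0.51 ± 0.093 (SE, n = 2 per group), or 1.43-fold, with a limma adjusted p of 0.0455. Both GSI arrays lay well below both DMSO arrays. This call did not hold when every probe set was tested (limma, adjusted p = 0.0826). Without 1 array the difference ran from -0.57 to -0.46. Such a fit leaves 1 array in a group, and too few genes pass it to decide a call. Hspe1, which encodes the HSP10 lid and shares the start region shown above, differed by -0.17 (limma, adjusted p = 0.326), and its second probe set by -0.30.

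Trap1, the mitochondrial member of the HSP90 family, read 10.14 and 10.17 with DMSO and 9.84 and 9.89 with GSI. The difference was -0.29 ± 0.083 (SE, n = 2 per group; limma, adjusted p = 0.123). Its dimmer probe set gave -0.085, and the mean of both gave -0.19 (limma, adjusted p = 0.264). Hspa9, encoding the mitochondrial HSP70 that draws proteins through the inner membrane, read 11.52 on both DMSO arrays and 11.22 and 11.25 with GSI. Its difference was -0.29 ± 0.082 (SE, n = 2 per group; limma, adjusted p = 0.121), and all 5 of its probe sets had lower means with GSI, by 0.18 to 0.35. For both genes the gap between groups was larger than that between arrays of a group, but neither passed.

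Of the 8 TRiC/CCT subunits 7 had lower means and non-overlapping arrays with GSI. GSI arrays lay below in 27.7% of all genes and in 40.2% of those at least as bright as the median member. In limma 0 passed, and 2 were lower without adjustment, against 10.7% of all genes. The median difference was -0.16. Each ring of the chaperonin holds 1 copy of every subunit. The differences of their brightest probe sets ran from -0.29 to 0.018, and dimmer probe sets reached -0.50 (Cct3) and 0.20 (Cct2). Among the brightest probe sets the lowest difference was that of Cct3, which read 12.18 and 12.10 with DMSO and 11.81 and 11.88 with GSI. Its difference of -0.29 ± 0.087 (SE, n = 2 per group) had a limma adjusted p of 0.135. The intervals of all 8 subunits overlapped.

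Cct8 read 11.93 and 11.96 with DMSO and 11.67 and 11.78 with GSI, a difference of -0.22 (limma, adjusted p = 0.233). Cct7 read 12.02 and 11.93 with DMSO and 11.78 and 11.74 with GSI, also a difference of -0.22 (limma, adjusted p = 0.226). In both the lower DMSO array stayed above the higher GSI array. Cct5 differed by -0.17, Cct6a by -0.16 (-0.096 without GSI replicate 1), Tcp1, the founding subunit, by -0.12 and Cct2 by -0.11. Cct4 differed by 0.018 and its arrays overlapped. Dimmer probe sets of Cct2 and Cct4 pointed the other way, so for these 2 genes the sign depended on the probe set. The brightest probe sets of Cct3 and Cct4, like that of Hspa8, are of a kind that Affymetrix marks as possibly binding related sequences, so related transcripts may add to their values.

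**Figure D2:**
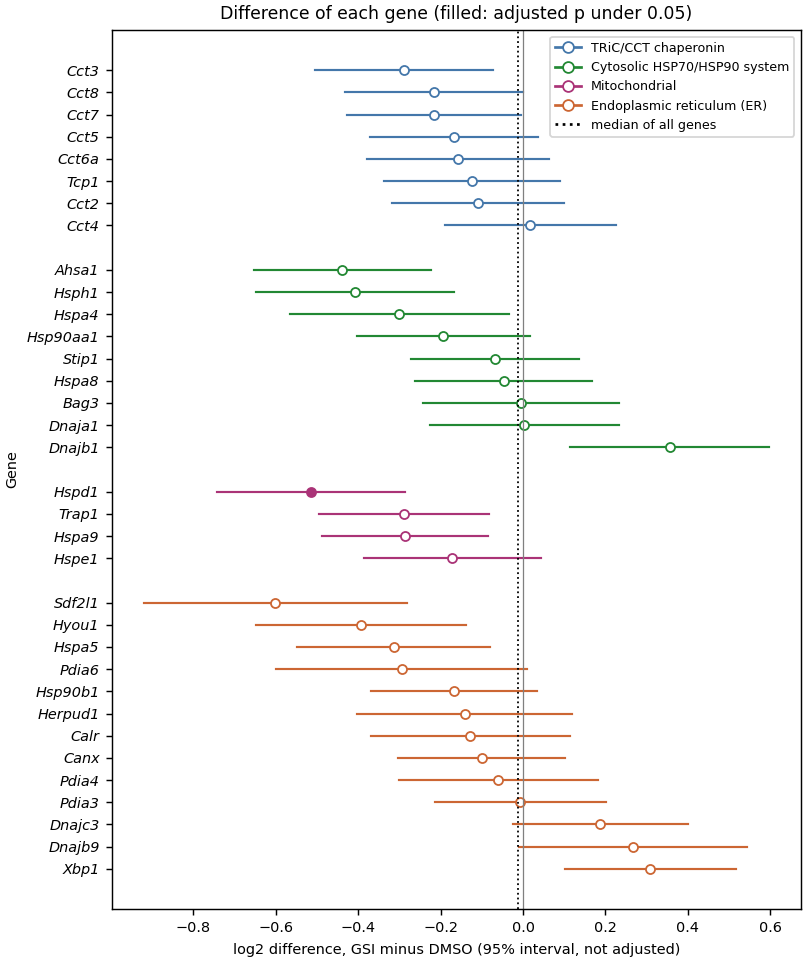
Log2 difference of each gene, GSI minus DMSO (horizontal axis), with its 95% interval from limma, not adjusted for the number of genes, in 4 groups by compartment; the dotted line is the median of all genes. Hspd1 is the only filled point (adjusted p under 0.05), most points lie left of 0, and Dnajb1, Xbp1, Dnajb9 and Dnajc3 stand to the right.

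The other cytosolic chaperones were mixed. Of 9 measured genes 7 had lower means, 5 with GSI arrays below both DMSO arrays (27.7% of all genes), and 0 passed limma. Without adjustment 3 were lower and 1 higher, against 10.7% and 10.8% of all genes. The median difference of the 9 was -0.069. The cochaperone gene Ahsa1, whose protein speeds the ATPase of HSP90, read 10.80 and 10.69 with DMSO and 10.30 and 10.31 with GSI. It differed by -0.44 ± 0.087 (SE, n = 2 per group; limma, adjusted p = 0.0550). It passed with dim genes left out (limma, adjusted p = 0.0228) and with the prior that follows the signal (limma, adjusted p = 0.00501). Its dimmer probe set gave 0.076, and the mean of both gave -0.18 (limma, adjusted p = 0.320).

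Hsph1, encoding HSP110, which exchanges the nucleotide of HSP70, read 10.75 and 10.60 with DMSO and 10.32 and 10.22 with GSI. The difference was -0.41 ± 0.097 (SE, n = 2 per group; limma, adjusted p = 0.0841), and its second probe set gave -0.44. It passed with dim genes left out (limma, adjusted p = 0.0375) and with the prior that follows the signal (limma, adjusted p = 0.0123). Hspa4, a relative with the same role, differed by -0.30 (limma, adjusted p = 0.190), with 3 of its 4 probe sets lower. It gave -0.18 without DMSO replicate 1 and -0.17 as the mean of its probe sets. Both nucleotide exchange genes had non-overlapping arrays.

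Dnajb1, the J-domain partner of inducible HSP70, went the other way. It read 10.21 and 10.18 with DMSO and 10.64 and 10.46 with GSI, a difference of 0.36 ± 0.098 (SE, n = 2 per group; limma, adjusted p = 0.113), and its second probe set gave 0.25. The other J-domain gene, Dnaja1, differed by 0.0029, with overlapping arrays. The constitutive HSP70 gene Hspa8 differed by -0.047 and the HSP90 gene Hsp90aa1 by -0.19. Stip1, whose protein links HSP70 to HSP90, differed by -0.069, and Bag3, which directs HSP70 clients to autophagy, by -0.0047. For Hspa8 the 4 probe sets ran from -0.46 to 0.25, so no single direction can be given for that gene.

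The ER genes went in both directions. Of 13 genes 10 had lower means with GSI, 8 with non-overlapping arrays against 27.7% of all genes, and 3 lay above without overlap, a share of 23.1% against 23.7%. In limma 0 passed, and without adjustment 3 were lower and 1 higher, against 10.7% and 10.8% of all genes. The median difference was -0.13. Sdf2l1, encoding a partner of ER J-domain proteins, read 8.996 and 8.73 with DMSO and 8.15 and 8.37 with GSI. Its difference of -0.60 ± 0.13 (SE, n = 2 per group) was the lowest of the 34 genes (limma, adjusted p = 0.0654). It passed with dim genes left out (limma, adjusted p = 0.0309) and with the prior that follows the signal (limma, adjusted p = 0.0128). It also passed with probe set means (limma, adjusted p = 0.0450). Sdf2l1 had only 1 probe set, so averaging changed other genes and not its own values.

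Hyou1, encoding the ER relative of HSP110, read 9.68 and 9.73 with DMSO and 9.20 and 9.42 with GSI, a difference of -0.39 ± 0.10 (SE, n = 2 per group; limma, adjusted p = 0.102). Hspa5, encoding BiP, the ER HSP70 that also restrains the stress sensors, read 11.85 and 11.71 with DMSO and 11.42 and 11.51 with GSI. It differed by -0.31 ± 0.095 (SE, n = 2 per group; limma, adjusted p = 0.134), and its other probe sets by -0.19 and -0.15. The brightest probe sets of Hspa5 and of Hyou1, the gene of the BiP exchange factor, thus had lower values on both GSI arrays. Both dimmer probe sets of Hyou1 differed by -0.18, with overlapping arrays. The mean of the Hyou1 probe sets gave -0.25 (limma, adjusted p = 0.161). Hsp90b1, encoding GRP94, differed by -0.17.

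Among the disulphide isomerases Pdia6 differed by -0.29, Pdia4 by -0.060 and Pdia3 by -0.0063, the last 2 with overlapping arrays. Pdia6 ran from -0.14 without DMSO replicate 1 to -0.45 without DMSO replicate 2. The lectin genes Calr and Canx differed by -0.13 and -0.10, and Herpud1, which acts in the removal of misfolded ER proteins, by -0.14. Calr gave -0.052 without DMSO replicate 1, -0.20 without DMSO replicate 2 and -0.076 without GSI replicate 2. Herpud1 gave -0.026 without GSI replicate 2 and -0.26 without GSI replicate 1. Of the 6 members with an ER stress element in the window shown above, 5 had lower means and Dnajc3 a higher one, at 0.19. Lower means were found in 10 of all 13 ER members and 53% of all genes, and a link to the element was not tested. The 3 ER genes with GSI arrays above the DMSO arrays were Dnajc3, a J-domain partner of BiP, Dnajb9, another such partner, at 0.27, and Xbp1. For Dnajc3 3 dimmer probe sets pointed the other way, and the mean of its probe sets gave 0.011. Dnajb9 gave 0.14 without GSI replicate 2.

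Xbp1, the transcription factor gene whose transcript IRE1 splices, read 9.17 and 9.10 with DMSO and 9.43 and 9.45 with GSI. Its difference was 0.31 ± 0.084 (SE, n = 2 per group; limma, adjusted p = 0.112), and its 4 probe sets all had higher means, by 0.12 to 0.34. It passed with dim genes left out (limma, adjusted p = 0.0494) and with the prior that follows the signal (limma, adjusted p = 0.0315). These probe sets do not report splicing.

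A further 88 genes of protein folding and quality control were set beside the members. They were listed by role, with earlier results of these data known, and 85 were measured. Of these 2 rose, against 2.56% of all genes, and 4 fell, against 1.56%, and their median difference was -0.040. Both rises were ER stress sensor genes. Fits without 1 array cannot decide these calls either, so only their log2 differences are given. Eif2ak3, encoding PERK, read 8.60 and 8.75 with DMSO and 9.72 and 9.57 with GSI, and rose by 0.97 on the log2 scale (limma, adjusted p = 0.0109). Without 1 array it rose by 0.89 to 1.05. Its call held with every probe set tested (limma, adjusted p = 0.0218) but not with replicate number as a block (limma, adjusted p = 0.0572). Ern1, encoding IRE1 alpha, read 7.28 and 7.27 with DMSO and 7.79 and 7.76 with GSI. It rose by 0.50 (limma, adjusted p = 0.0372), and by 0.48 to 0.52 without 1 array. As the mean of its probe sets Ern1 differed by 0.18 (limma, adjusted p = 0.302), and with every probe set tested it did not pass either (limma, adjusted p = 0.0720).

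The other 7 of the 9 sensor and stress factor genes did not pass. Among them, named after their values were seen, Ddit3, the stress-induced factor CHOP, differed by 0.53 (limma, adjusted p = 0.0889). The other 6 had lower means with GSI. Atf4 differed by -0.35 (limma, adjusted p = 0.139) and Atf6 by -0.20 (limma, adjusted p = 0.396). Ppp1r15a differed by -0.30 (limma, adjusted p = 0.113), Trib3 by -0.39, Creb3l2 by -0.22 and Atf6b by -0.12. In the same arrays the uncalled ER members lay on either side, from -0.60 for Sdf2l1 to 0.31 for Xbp1. The levels of the sensor proteins were not measured.

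**Figure D3:**
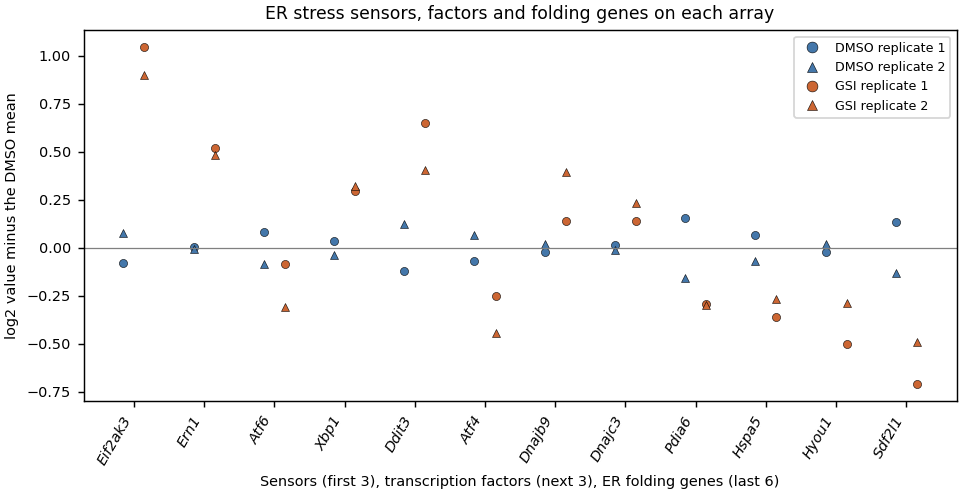
Log2 expression minus the mean of the DMSO arrays (vertical axis) for 3 ER stress sensor genes, 3 transcription factor genes and 6 ER folding genes; circles are replicate 1, triangles replicate 2, blue DMSO and orange GSI. Both GSI arrays lie above both DMSO arrays for Eif2ak3, Ern1, Xbp1, Ddit3, Dnajb9 and Dnajc3 and below them for Atf4, Pdia6, Hspa5, Hyou1 and Sdf2l1. The genes are a selection. ER members with smaller differences, such as Pdia3 and Canx, and stress genes such as Ppp1r15a and Trib3 are not shown.

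In the other mitochondrial folding genes 2 of 10 fell, against 1.56% of all genes, and 9 of 10 had GSI arrays below both DMSO arrays, against 27.7%, with a median of -0.24. The falls were Htra2, a protease of the space between the membranes, by 0.72 (limma, adjusted p = 0.0186) and Clpp, the matrix protease subunit, by 0.60 (limma, adjusted p = 0.0491). Of 29 other cytosolic chaperones and cochaperones 2 fell, Bag2, an inhibitor of client ubiquitination by CHIP, by 0.64 (limma, adjusted p = 0.0322) and Fkbp4, an HSP90 cochaperone, by 0.56 (limma, adjusted p = 0.0362). As the mean of its probe sets Fkbp4 differed by -0.29 (limma, adjusted p = 0.130). When every probe set was tested Clpp, Bag2 and Fkbp4 did not pass (limma, adjusted p = 0.0867, 0.0602 and 0.0691). Htra2 passed there (limma, adjusted p = 0.0373) but not with replicate number as a block (limma, adjusted p = 0.0592). The remaining 27 cytosolic genes did not pass, and the median of that list was -0.040.

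Of 9 prefoldin and chaperonin cofactor genes 0 passed limma, and the median was 0.00037. Without adjustment 2 were higher and 3 lower, against 10.8% and 10.7% of all genes. Prefoldin hands unfolded actin and tubulin to TRiC/CCT. Its subunit gene Pfdn5 differed by 0.34 and Pfdn2 by -0.30. Of 28 other ER genes 0 passed limma, and the median was 0.020. Without adjustment 5 were higher and 3 lower, against the same shares of all genes. Txndc5, a disulphide isomerase gene, differed by -0.62 (limma, adjusted p = 0.0567), and Edem1, which marks misfolded glycoproteins for removal, by 0.51 (limma, adjusted p = 0.0608).

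**Figure D4:**
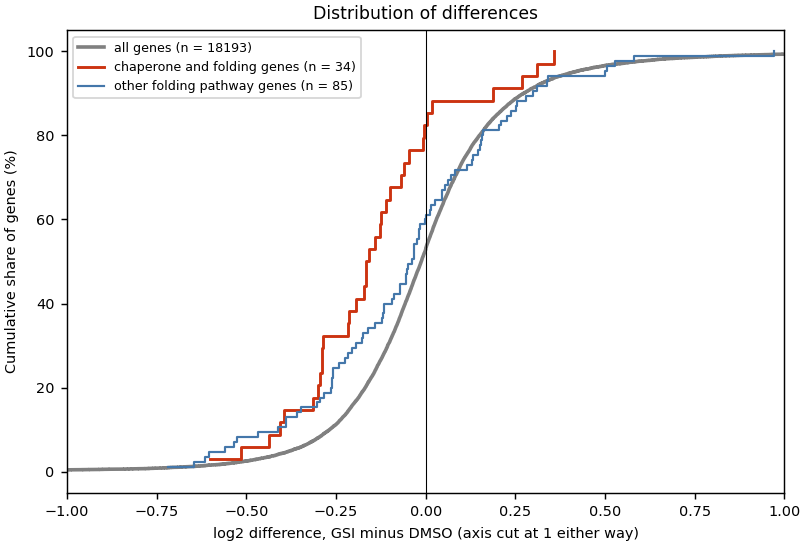
Cumulative share of genes in percent (vertical axis) against the log2 difference, GSI minus DMSO (horizontal axis), for all 18193 genes in grey, the 34 chaperone and folding genes in red and the 85 other folding genes in blue. At a difference of 0 the red curve has reached 82.4%, the blue one 60% and the grey one 53%.

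The 34 genes had 92 probe sets in all, and 27 genes had more than 1. Of 51 dimmer probe sets above the array median 40 pointed the same way as the brightest of their gene, and those of the opposite sign belonged to 6 genes (Cct2, Cct4, Hspa8, Hspa4, Ahsa1 and Dnajc3). None of the 92 passed limma when all 45037 non-control probe sets were tested together. Sets of 1 gene share its RNA on the same arrays and are not replicates.

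**Figure D5:**
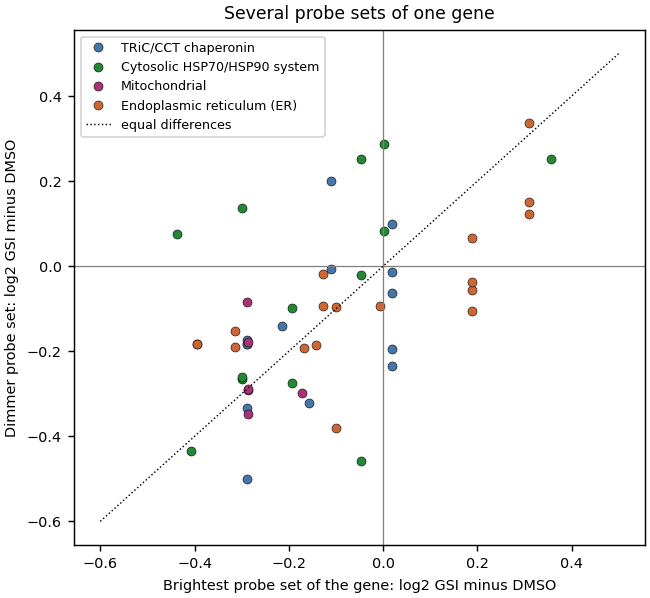
Log2 difference, GSI minus DMSO, of each dimmer probe set above the array median (vertical axis) against that of the brightest probe set of the same gene (horizontal axis), coloured by compartment; the dotted line marks equal differences. Of the 51 points 40 lie in the quadrants where both signs match.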

How the data were processed

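T29 cells were compared on 4 Affymetrix arrays, 2 with DMSO and 2 with GSI. The deposited values are log2 expression, 1 per probe set and array, made with RMA per the submitters' processing notes. The RMA version is not given in the sources used here, nor are its settings. RMA normalizes between arrays and so assumes that most genes do not shift 1 way. The table held 45101 probe sets, and the 64 control sets were left out. Of 45037 others, 34945 had 1 symbol, 932 several and 9160 none, and 34741 were found in RefSeq GRCm38.p6, which updated the names.

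For each of 18193 genes the brightest 1-symbol probe set was tested with limma 3.58.1 in R 4.3.3 (lmFit, eBayes, group as the only term, two-sided, Benjamini-Hochberg over all genes, called under 0.05 after adjustment). Of 5.80 degrees of freedom, 3.80 came from the prior. Intervals are 95% intervals of the moderated fit, and SE is its standard error. The number of arrays limits the precision. Members and lists were chosen with earlier results of these data known. The text names all members, gives single arrays for called members and the 3 largest differences per compartment, and names up to 4 called genes of each further list, or the 2 with the smallest p. In simulated data for the same 18193 genes, 200 were changed. There limma recovered 1.47% of changes of 0.5 and 57.6% of changes of 1 on the log2 scale. Fewer genes were changed than the 750 called in the data, and spreads were shuffled among genes. The shares therefore do not give the recovery for the bright members. Motifs were searched with Python 3.11.15. A planned look at protein ends was not made, since protein sequences were not used here. The alternatives were averaged probe sets, every probe set, dim genes left out, an intensity trend with robust prior, centred arrays, cyclic loess, a replicate block and each array left out.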

Additional observations from a re-analysis of the deposited data

How the results depend on the processing

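The count of members called lower was 1, against 2 with probe set means, 5 with dim genes left out, 12 with the trend and robust prior, 0 with every probe set tested, 0 with the replicate block and 0 without any 1 array. The count called higher was 0, against 1 with dim genes left out and 2 with the trend and robust prior. Over all genes 466 rose and 284 fell, against 899 and 685 with dim genes left out, 1042 and 899 with the trend and robust prior, 147 and 70 with the replicate block, and 0 to 1 and 0 to 5 without 1 array. The replicate number is only a shared number in the labels (correlation of same-numbered deviations over genes 0.085), and with it as a block Hspd1 had a limma adjusted p of 0.119. The median of the 34 genes stayed between -0.18 and -0.14 without 1 array, and that of the mitochondrial genes was -0.26 with probe set means against -0.29.

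Signs that changed belonged to uncalled genes. With probe set means Cct2 gave 0.029 and Cct4 -0.045, and with cyclic loess Bag3 gave 0.0063 and Pdia3 0.012. Without 1 array Cct4 ran from -0.0095 to 0.046, Hspa8 from -0.096 to 0.0023, Dnaja1 from -0.051 to 0.057, Bag3 from -0.071 to 0.061, Pdia3 from -0.036 to 0.023 and Pdia4 from -0.15 to 0.032. The other members kept their direction in all 11 alternatives. Each fit without 1 array takes the spread from the group that still has 2.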

Other observations

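The DMSO arrays lay apart in 2 genes of ER folding and stress, named after their values were seen. Ero1a, encoding the oxidase that recharges disulphide isomerases, read 8.13 and 9.40 with DMSO and 8.10 and 8.49 with GSI. Trib3, a stress-induced pseudokinase gene, read 7.65 and 8.38 with DMSO and 7.64 and 7.61 with GSI. DMSO replicate 2 was the high array for both, and the limma adjusted p was 0.568 for Ero1a and 0.394 for Trib3. The group differences were -0.47 and -0.39 on the log2 scale.

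Hspa1b, an inducible HSP70 gene, read 7.35 and 6.80 with DMSO and 6.52 and 6.56 with GSI (limma, adjusted p = 0.167), while its near-identical copy Hspa1a read 2.59 to 2.74 on all arrays. With copies this alike, the share of each is uncertain.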
